A study of Mus musculus with 8 samples.

Results

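The aminoacyl-tRNA synthetases of the mouse heart are described here as a family of 40 genes, of 55383 genes in the deposited table. They were chosen by gene symbol, with earlier results of these data known: 21 genes for enzymes of the cytosol, 16 for enzymes of the mitochondrion, and the partners Xpot, Aimp1 and Aimp2. All 40 passed the filter on low values (a normalized count of 10 or more in 2 or more libraries) and so were among the 14522 genes tested. RNA came from heart tissue of inbred C57BL/6N mice at ~5 weeks of age and was sequenced in strand-specific TruSeq libraries. The 2 controls are labelled Ssbp1+/+ and the 2 knockouts Ssbp1-/-, where Ssbp1 is the gene for mtSSB, the single-stranded DNA binding protein of mitochondria. In the study the knockout hearts had lost a loxP-flanked exon of Ssbp1 to a Cre recombinase driven by the muscle creatine kinase (Ckmm) promoter in heart and skeletal muscle, and control mice carried the loxP alleles without Cre. The labels describe a Cre cross for all mice and do not say which mouse carried Cre. Heart tissue also holds vessel, connective tissue and blood cells, in which this promoter is not known to be active. Fewer cells of a type and less RNA per cell therefore cannot be told apart. Each library is a separate mouse, with 2 mice a group. The limma standard errors (SE) and p-values draw the variance of each gene towards a trend over all genes tested. They are thus no measure of the spread between the mice of that gene alone. A pair of further mice whose title and genotype label contradict each other entered only the alternatives named as such.

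The reads behind the normalized counts, which are estimates assigned to genes and no sequencing depth, came to 19716305 to 25682093 per library. Of these, 8981637 and 6568812 in controls and 10734547 and 11259234 in knockouts fell on nuclear genes. The reads on nuclear genes were thus more in both knockouts than in both controls. The targeted gene Ssbp1 had normalized counts of 177 and 216 in controls against 169.7 and 163 in knockouts, a log2 fold change of -0.23 ± 0.16 (SE, n = 2 per group) that did not pass the limma test (adjusted p = 0.89). The count runs over the whole gene and is no direct measure of the deleted exon. The cardiomyocyte markers (Myh6, Tnnt2, Actc1, Myl2, Tnni3, Ryr2) summed to 562536 and 526471 in controls against 557373 and 538182 in knockouts, whereas the 5 skeletal muscle markers summed to at most 12.7 in any of these hearts, with Myh1 at 0 in all 4. Of all reads, 62.7% and 66.7% in control and 58.0% and 56.2% in knockout hearts fell on genes of the mitochondrial genome, so this share moved with the groups.

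Each synthetase joins an amino acid to its tRNAs, the step that supplies both protein synthesis machineries of the cell. For most amino acids a nuclear gene encodes the enzyme of the cytosol and another, usually with the suffix 2, encodes an enzyme that is imported into mitochondria and charges the tRNAs of mtDNA; Gars (glycine) and Kars (lysine) serve both compartments from the same gene. Several cytosolic enzymes are bound together in the multisynthetase complex, held by the scaffolds Aimp1 and Aimp2, and Xpot carries tRNA out of the nucleus. Many cytosolic synthetase genes are known targets of ATF4, a transcription factor of the integrated stress response that binds DNA with a C/EBP partner, and NRF1 is a known activator of nuclear genes for mitochondrial proteins.

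Promoter windows, from 250 bases before to 50 after the gene start, were taken from RefSeq on GRCm38.p6 for 14 of the 21 cytosolic and 14 of the 16 mitochondrial genes and for all 3 partners. They were searched on both strands for the letters TGATGNAA (bound by ATF4 with a C/EBP partner), TGACGTCA (the cAMP response element) and GCGCATGC (bound by NRF1). The ATF4 letters stood in 5 of the 14 cytosolic windows (35.7%), those of Aars, Gars, Iars, Tars and Yars, and in 0 of the 14 mitochondrial genes and 0 of the 3 partners, beside 4.51% of all 27025 genes with a window. The NRF1 letters stood in 3 of the 14 mitochondrial genes (21.4%), Rars2, Vars2 and Wars2, and in 0 of the cytosolic ones, beside 3.05% of all genes. TGACGTCA stood in 0 of the members' windows and in 2.03% of all genes. A match is a description of the letters, not a binding site. The annotated start of Yars lies 33 bases from that of S100pbp on the opposite strand, and that of Rars2 lies 13 bases from that of Orc3. A match in these windows therefore cannot be assigned to a single gene. The windows of Cars, Hars, Lars, Nars, Rars, Vars, Wars, Pars2 and Hars2 were not analysed here.

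The stretches that hold the matches are shown from 130 bases before the start, 5′ to 3′ on the strand of the gene, because these 5 cytosolic genes are later compared with those whose windows lack the letters. Capitals mark TGATGNAA or, read on the other strand, TTNCATCA. Aars lies at chr8:111033712-111033871 on the plus strand, with matches whose first bases are at positions -112 and 9 (the start base counts as 0). The Gars stretch is chr6:55037871-55038030 on the plus strand (match at -30), that of Iars chr13:49682000-49682159 on the plus strand (7), that of Tars chr15:11399629-11399788 on the minus strand (-15) and that of Yars chr4:129189773-129189932 on the plus strand (3).
Aars: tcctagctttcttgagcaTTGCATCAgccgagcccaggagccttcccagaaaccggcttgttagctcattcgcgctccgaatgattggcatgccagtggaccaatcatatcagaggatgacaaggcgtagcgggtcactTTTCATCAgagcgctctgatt
Gars: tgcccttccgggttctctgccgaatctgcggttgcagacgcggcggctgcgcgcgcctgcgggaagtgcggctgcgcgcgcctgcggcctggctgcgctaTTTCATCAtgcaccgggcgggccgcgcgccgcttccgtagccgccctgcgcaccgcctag
Iars: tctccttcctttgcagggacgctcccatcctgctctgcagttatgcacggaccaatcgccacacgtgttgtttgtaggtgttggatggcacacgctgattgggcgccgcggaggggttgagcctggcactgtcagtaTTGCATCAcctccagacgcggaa
Tars: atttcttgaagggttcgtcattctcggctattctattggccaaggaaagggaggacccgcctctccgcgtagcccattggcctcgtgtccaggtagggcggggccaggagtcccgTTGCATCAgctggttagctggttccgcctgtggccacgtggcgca
Yars: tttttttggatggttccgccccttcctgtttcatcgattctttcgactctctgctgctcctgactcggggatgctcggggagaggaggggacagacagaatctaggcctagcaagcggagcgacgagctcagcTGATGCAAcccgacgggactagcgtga
For comparison, Vars2, the mitochondrial valine enzyme, is shown at chr17:35667563-35667722 on the minus strand with capitals on the NRF1 letters, which it held on the other strand as GCATGCGC at -46 and -20.
Vars2: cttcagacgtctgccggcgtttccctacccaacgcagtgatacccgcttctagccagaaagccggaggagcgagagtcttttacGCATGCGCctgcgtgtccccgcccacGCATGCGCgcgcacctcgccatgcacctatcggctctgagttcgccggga

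The summed counts of the cytosolic synthetases were higher in both knockout hearts than in both controls, while those of the mitochondrial synthetases stood near the controls. Summed over the 21 cytosolic genes, normalized counts came to 8902 and 9332 in control replicates 1 and 2, against 14325 and 14164 in the knockout hearts. The 16 mitochondrial genes summed to 3953 and 4027 in controls against 4146 and 4058 in knockouts. The median log2 fold change was 0.42 over the cytosolic genes and 0.075 over the mitochondrial genes, beside 0.0024 over all genes tested. Fold changes are on the scale of log2(normalized count + 1).

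**Figure D1:**
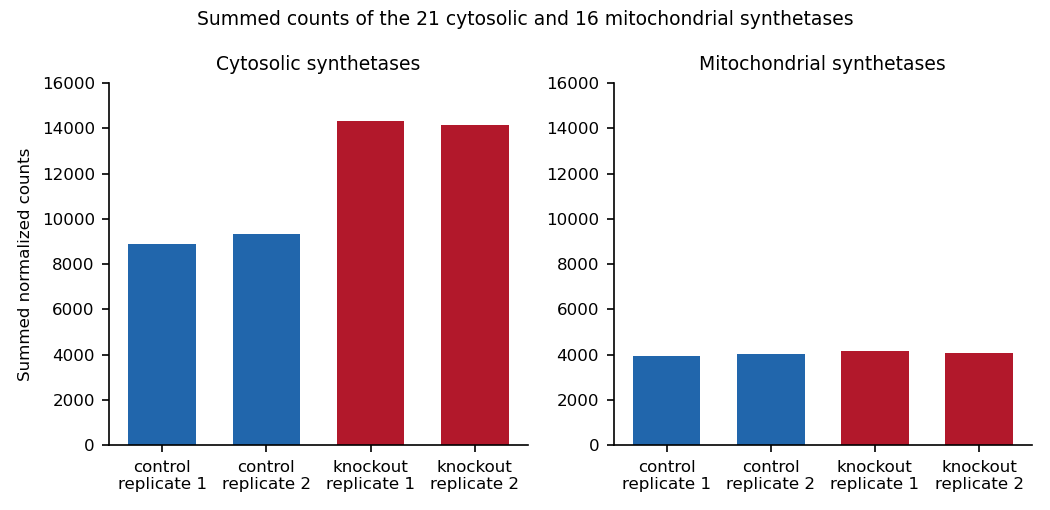
Summed normalized counts of the cytosolic (left) and mitochondrial (right) synthetase genes, 1 bar per heart, blue for controls and red for knockouts. The cytosolic sum is higher in both knockouts than in both controls, and the mitochondrial sum differs little between the 4 hearts.

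Put as a ratio within each heart, the cytosolic sum was 2.25 and 2.32 times the mitochondrial sum in the controls and 3.46 and 3.49 times in the knockouts. The group means, 2.28 ± 0.047 and 3.47 ± 0.025 (SD, n = 2 per group), differ by 0.60 on the log2 scale, a gap wider than the spread within either group. With the mice of contradictory labels placed by title, at ratios of 3.46 (controls) and 2.43 (knockouts), the groups overlapped and the difference was 0.23; placed by genotype field they did not overlap and it was 0.57. The cytosolic median log2 fold change was 0.16 by title and 0.50 by genotype field. Without Gars and Kars, which serve both compartments, the difference was 0.61. The ratio depends on the lengths of the transcripts, so only its change between hearts is read here, and it is a description with no test, as is the contrast of the cytosolic with the mitochondrial group.

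The groups were then read gene by gene. In the limma fit over all genes, with Benjamini-Hochberg adjustment at 0.05, 2 of the 21 cytosolic genes and 1 of the 3 partners passed as higher in the knockouts, and 0 members passed as lower in this or either of the other tools. Over all 14522 genes tested, 0.0757% passed as higher and 0.0413% as lower. At an unadjusted p under 0.05 in the same fit, 11 cytosolic genes were higher and 0 lower, where 3.08% of all genes were higher and 3.02% lower. edgeR on the recovered reads passed 3 cytosolic genes as higher (0.0895% of all genes) and DESeq2 passed 8 (0.296% of all genes), and each passed Xpot as well. Without regard to any threshold, both knockouts lay above both controls in 17 of the 21 cytosolic genes and below in 2, beside 18.1% and 17.5% of all genes.

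**Figure D2:**
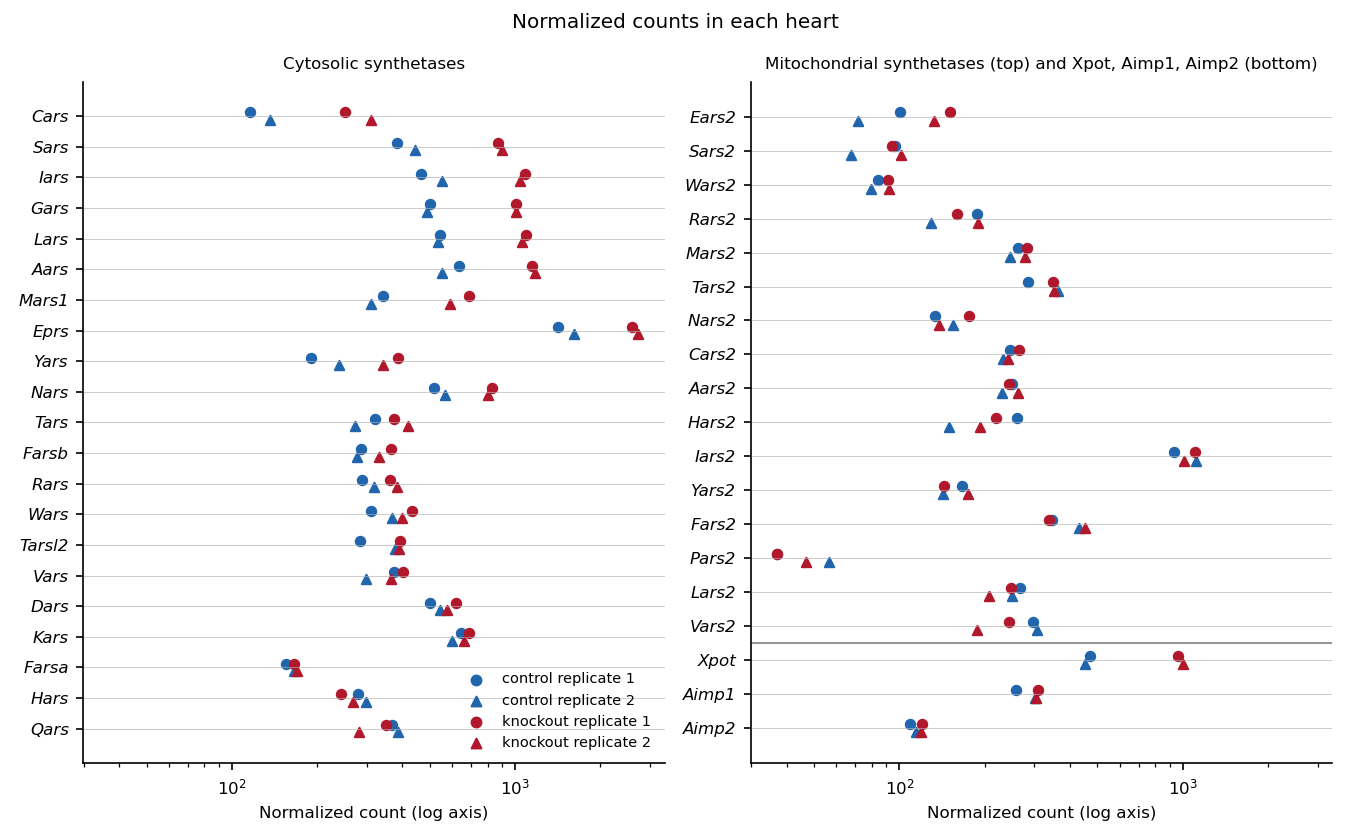
Normalized count (log axis) of every member in each heart, with blue for controls, red for knockouts, circles for replicate 1 and triangles for replicate 2; genes are ordered by fold change within their group. Blue and red points are well apart for Cars down to Nars on the left and for Xpot, and are mixed in most mitochondrial genes.

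The genes that passed in all 3 tools were Gars, Lars and Xpot. Gars (chr6:55038007-55079500 on GRCm38), the glycine enzyme of both compartments, had normalized counts of 502 and 489 in control hearts 1 and 2 against 1009.95 and 1008 in knockout hearts 1 and 2. It rose by 1.02 ± 0.098 on the log2 scale (SE, n = 2 per group; limma adjusted p = 0.0384). Lars (chr18:42202298-42262194), the leucine enzyme of the multisynthetase complex, which also senses leucine for the mTORC1 pathway, had 541 and 533 in control hearts 1 and 2 against 1093 and 1054 in knockout hearts 1 and 2. Its log2 fold change was 0.997 ± 0.097 (limma adjusted p = 0.0401). Xpot (chr10:121587380-121626332), the tRNA exporter, had 471 and 451 in control hearts 1 and 2 against 962 and 1007 in knockout hearts 1 and 2 and a log2 fold change of 1.09 ± 0.10 (limma adjusted p = 0.0351). In each of these genes the values of the knockouts were far above those of the controls, and replicates of a group differed by far less.

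In limma, leaving out each heart in turn left the log2 fold changes at 1.005 to 1.04 for Gars, 0.97 to 1.02 for Lars and 1.06 to 1.12 for Xpot, while the limma adjusted p ranged from 0.0527 to 0.331, 0.0574 to 0.327 and 0.0467 to 0.327. Gars and Lars thus lost the call whichever of the 4 hearts was left out, and Xpot kept it only without control replicate 1. With the mice of contradictory labels added by their titles, 0 cytosolic genes passed in limma, and with them added by their genotype field, 8 passed but Xpot did not. DESeq2 by genotype field did pass Xpot.

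Sars was past the threshold in edgeR and DESeq2, and Iars, Aars, Eprs, Mars1 and Cars in DESeq2 alone. None of these passed in limma at the settings used here, but Sars, Aars and Iars did when the filter asked for a count of 50 (adjusted p = 0.039, 0.0452 and 0.0452) and in a robust fit (adjusted p = 0.0341, 0.0412 and 0.0412), and Aars also did without control replicate 1 (adjusted p = 0.0467). Sars, the serine enzyme, had normalized counts of 384 and 442 in control hearts 1 and 2 against 867 and 898 in knockout hearts 1 and 2, the second largest log2 fold change among the cytosolic genes at 1.10 ± 0.12 (adjusted p = 0.0562 in limma, 0.0433 in edgeR and 4.2e-08 in DESeq2). Both knockouts were far above both controls. Cars, the cysteine enzyme, had the largest, 1.14 ± 0.18, from 116 and 136 in controls against 251 and 309 in knockouts (adjusted p = 0.221 in limma and 0.00645 in DESeq2). Aars, the alanine enzyme, had 633 and 551 in controls against 1148 and 1178 in knockouts and a log2 fold change of 0.98 ± 0.11 (adjusted p = 0.0699 in limma and 1.05e-07 in DESeq2). Exon sequence of Aars is shared on the same strand with Exosc6, where the counting could split reads.

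Within the multisynthetase complex the 8 enzymes were uneven. Eprs, the bifunctional enzyme for glutamate and proline, had 1416 and 1615 in controls against 2587 and 2717 in knockouts, a log2 fold change of 0.81 ± 0.10 (adjusted p = 0.0856 in limma and 4.84e-08 in DESeq2). Iars, for isoleucine, had 465 and 554 in controls against 1079.97 and 1039 in knockouts and a log2 fold change of 1.06 ± 0.12 (adjusted p = 0.0699 in limma and 3.74e-08 in DESeq2). Mars1, for methionine and also the initiator tRNA, is listed in the table as Mars and had 340.1 and 309 in controls against 687 and 588 in knockouts, a log2 fold change of 0.97 ± 0.13 (adjusted p = 0.129 in limma and 0.000134 in DESeq2). These, with Lars, were the complex enzymes with a clear gap between the groups. Mars1 overlaps exons of Ddit3 on the opposite strand, and the quantification was by strand.

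The other enzymes of the same complex showed smaller differences, and none passed in any of the 3 tools. Rars, for arginine, had 287 and 318 in controls against 362 and 383 in knockouts (log2 fold change 0.30 ± 0.13) and Dars, for aspartate, had 498 and 543 in controls against 618 and 573 in knockouts (0.19 ± 0.11). Kars, which charges tRNA with lysine in both compartments, had 641 and 597 in controls against 689 and 661 in knockouts (0.13 ± 0.11), a smaller log2 fold change than that of Gars, the other gene that serves both compartments; the difference was not tested. A pseudogene, Kars-ps1, could share reads with it. Qars, for glutamine, was the member of the complex with lower values in the knockouts, with 367 and 387 in controls against 350.1 and 280.00 in knockouts (-0.27 ± 0.15). Over the 8 enzymes the median log2 fold change was 0.55, beside 0.42 over the 13 cytosolic enzymes outside the complex. The scaffolds themselves had counts close to the controls, 258 and 302 in controls against 308 and 304 in knockouts for Aimp1 (0.13 ± 0.14) and 109 and 115 in controls against 120.3 and 119 in knockouts for Aimp2 (0.097 ± 0.17).

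Of the remaining enzymes outside the complex, Yars and Nars lay next in size. Yars, for tyrosine, had 189.6 and 238 in controls against 386 and 343 in knockouts (log2 fold change 0.77 ± 0.16; adjusted p = 0.53 in limma and 0.148 in DESeq2). Nars, for asparagine, had 515 and 566 in controls against 826 and 799 in knockouts (0.59 ± 0.11; adjusted p = 0.345 in limma and 0.051 in DESeq2). Neither passed, though their groups did not overlap. Tars, for threonine, had 319.6 and 272 in controls against 375 and 417 in knockouts (0.42 ± 0.14), and its paralog Tarsl2, which shares exon sequence on the same strand with Tm2d3, had 282 and 377 in controls against 393 and 388 in knockouts (0.26 ± 0.17). Wars, the tryptophan enzyme known to be induced by interferon, had 309 and 368 in controls against 431 and 398 in knockouts (0.30 ± 0.14). Farsb and Farsa encode the subunits of the same phenylalanine enzyme. Farsb had 286 and 278 in controls against 365 and 331 in knockouts (0.30 ± 0.13), whereas the Farsa values of the groups overlapped, with 155 and 166 in controls against 166 and 169 in knockouts (0.060 ± 0.15). Vars, for valine, also overlapped, with 373 and 298 in controls against 401 and 363 in knockouts. Hars, for histidine, was lower in both knockouts, with 279 and 296 in controls against 242 and 267 in knockouts (-0.18 ± 0.13), and did not pass. From Cars at the top to Qars at the bottom the cytosolic log2 fold changes spanned 1.14 to -0.27. In 10 of the 21 genes the fitted fold change was at least 1.5-fold higher in the knockouts and in 0 at least 1.5-fold lower, beside 4.54% and 4.76% of all genes.

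**Figure D3:**
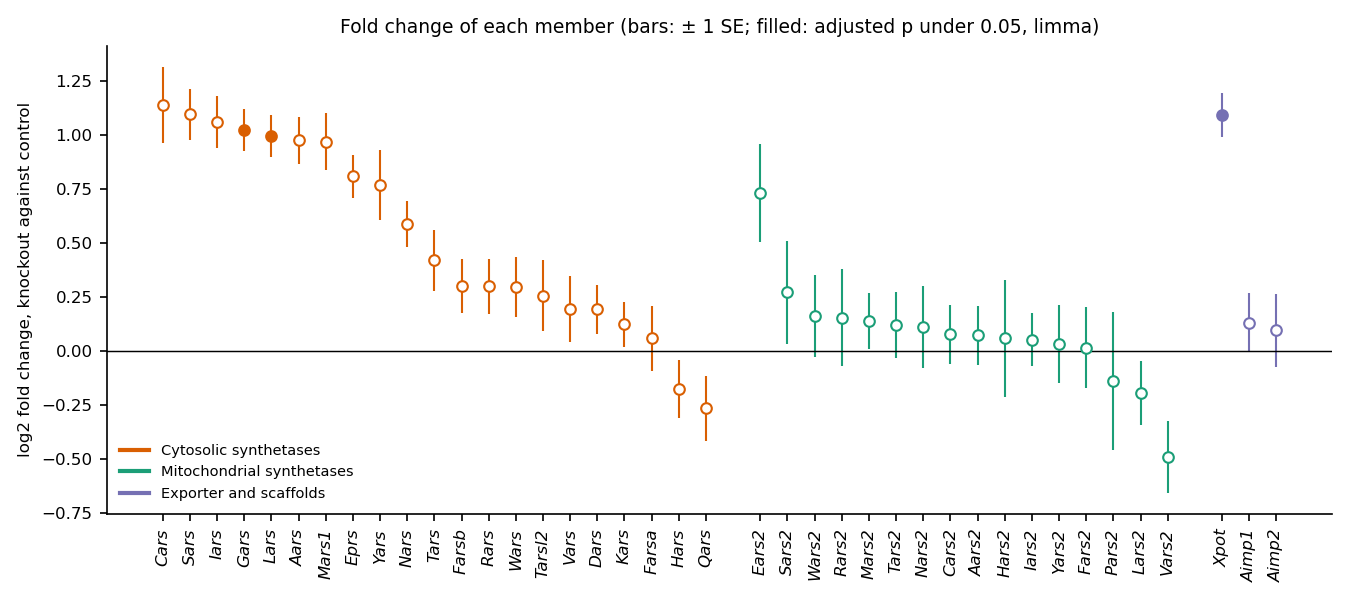
log2 fold change of knockout against control for every member, with bars of 1 SE (n = 2 hearts per group); filled circles passed limma at an adjusted p under 0.05, open circles did not. Cytosolic genes run from Cars at 1.14 to Qars at -0.27, while most mitochondrial genes lie close to 0.

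Synthetases fall into class I and class II by the fold of their catalytic domain. The median log2 fold change was 0.77 over the 9 cytosolic genes of class I and 0.30 over the 11 of class II, with Eprs, which holds a domain of each, left out. Both classes held genes from both ends of the range, Cars and Qars in class I and Sars and Hars in class II. No test was made of this split.

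By promoter letters, the 5 cytosolic genes with TGATGNAA in their window had log2 fold changes of 0.42 (Tars) to 1.06 (Iars), with a median of 0.98, and in all 5 both knockouts lay above both controls, beside 18.1% of all genes. Of the 9 genes whose window lacked the letters, both knockouts lay above both controls in 7 and below in 1. These 9 had a median of 0.26, from -0.27 (Qars) to 1.10 (Sars). The ranges overlapped, since Sars, Mars1 and Eprs stood high without the letters. The 7 genes whose window was not analysed, Lars and Cars among them, had a median of 0.30. Xpot, with a log2 fold change of 1.09, had none of the searched letters in its window. These are descriptions of letters in a short stretch, with no test.

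**Figure D4:**
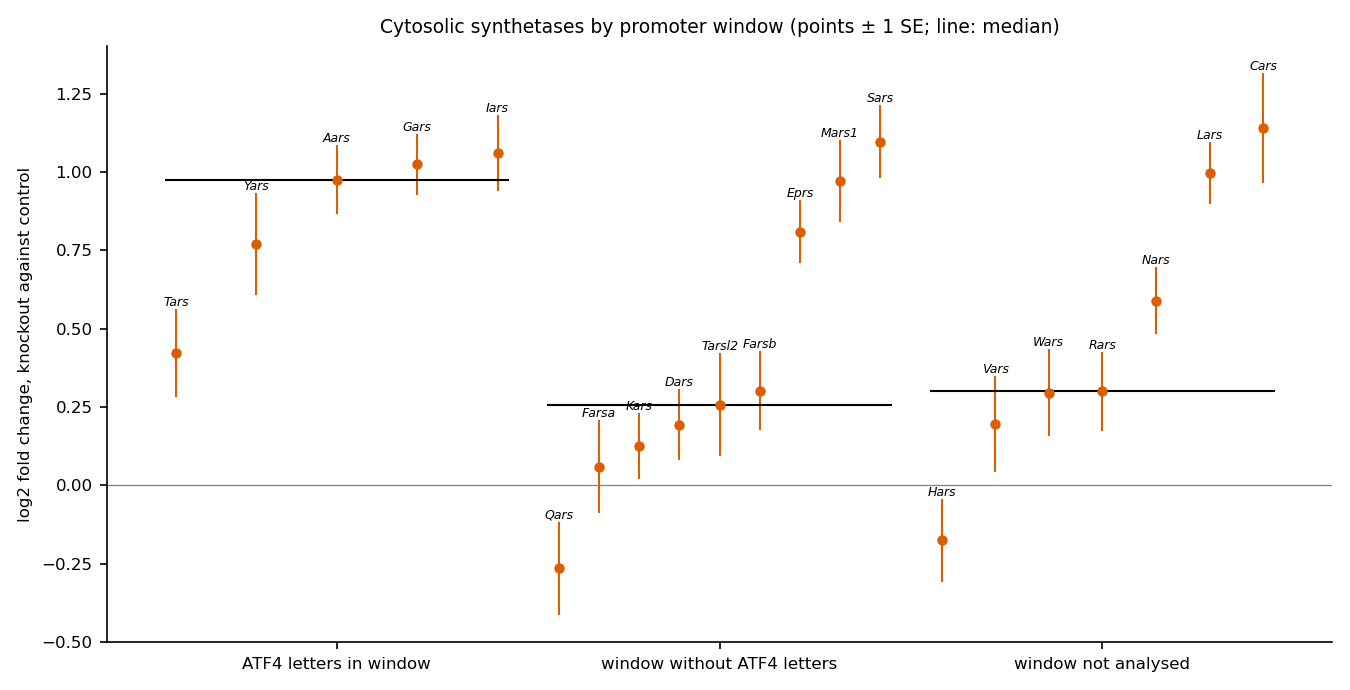
log2 fold change (± 1 SE, n = 2 hearts per group) of the cytosolic synthetase genes, by whether their promoter window held the ATF4 letters, lacked them, or was not analysed; the black line is the median of each set. Genes with the letters lie between 0.42 and 1.06, and those without span -0.27 to 1.10.

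Of the 16 mitochondrial synthetases, 0 passed in limma, edgeR or DESeq2 in either direction. At an unadjusted p under 0.05 in limma 1 was higher, Ears2, and 1 was lower, Vars2, which is close to the 3.08% and 3.02% of all genes. Ears2, for glutamate, had normalized counts of 101 and 71.4 in control hearts 1 and 2 against 152 and 132 in knockout hearts 1 and 2, a log2 fold change of 0.73 ± 0.23 (limma adjusted p = 0.742). It was the only 1 of the 16 mitochondrial genes at least 1.5-fold higher in the knockouts, beside 4.54% of all genes. Vars2, for valine, whose window holds the NRF1 letters in 2 places, had 296 and 306 in control hearts 1 and 2 against 244 and 188 in knockout hearts 1 and 2, a log2 fold change of -0.49 ± 0.17 (limma adjusted p = 0.773). In Ears2 and Vars2 the groups did not overlap. Rars2 and Wars2, whose windows also hold the NRF1 letters, had positive log2 fold changes of 0.16 and 0.16. Both knockouts lay above both controls in 3 of the 16 genes (Ears2, Mars2 and Wars2) and below in 2 (Vars2 and Lars2), near the 18.1% and 17.5% of all genes, and in the other 11 the groups overlapped.

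The rest of the mitochondrial group lay from Lars2 up to Sars2 in fold change. Sars2, for serine, had 96.8 and 67.4 in controls against 93.9 and 102 in knockouts (log2 fold change 0.27 ± 0.24), with knockout replicate 1 below control replicate 1. Wars2, for tryptophan, had 84.1 and 79.5 in controls against 91.4 and 91.8 in knockouts (0.16 ± 0.19), without overlap. Lars2, for leucine, had 268 and 251 in controls against 247 and 207 in knockouts (-0.19 ± 0.15). Rars2, for arginine, had 189 and 129 in controls against 159.8 and 189.7 in knockouts (0.16 ± 0.22), with the controls further apart than the knockouts. Iars2, for isoleucine, had 929 and 1115 in controls against 1104 and 1011 in knockouts (0.053 ± 0.12). Pars2, for proline, rested on the fewest reads, with 37.1 and 56.6 in controls against 37.1 and 46.7 in knockouts (-0.14 ± 0.32), and its error was the widest of all 40 members. Aars2, Cars2, Fars2, Mars2, Nars2, Tars2 and Yars2, for alanine, cysteine, phenylalanine, methionine, asparagine, threonine and tyrosine, had log2 fold changes of 0.016 (Fars2) to 0.14 (Mars2). Of these the groups were apart in Mars2 alone, with 263 and 245 in controls against 282 and 278 in knockouts.

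For 18 pairs the cytosolic and the mitochondrial enzyme for the same amino acid could be set against each other within each heart. The ratio of the cytosolic to the mitochondrial count was higher in both knockouts than in both controls in 11 pairs, lower in 0, and overlapped in 7. Eprs, Fars2 and Tars2 each enter 2 pairs, so the pairs are not independent, and the counts are given with no test or background share. Without that share, 11 of 18 cannot be set against what other pairs of genes would give. The ratios also use the same counts as the single genes above, so they are no separate result. For leucine the ratio of Lars to Lars2 was 2.02 and 2.13 in controls against 4.42 and 5.08 in knockouts, the largest shift of the 18 with 1.19 on the log2 scale. For isoleucine, Iars to Iars2 was 0.501 and 0.496 in controls against 0.978 and 1.03 in knockouts. In that pair the Iars groups were apart and the Iars2 groups overlapped. For alanine, Aars to Aars2 was 2.53 and 2.39 in controls against 4.71 and 4.50 in knockouts.

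Some pairs differed from this pattern. Eprs against Ears2 was 14.1 and 22.6 in controls against 17.1 and 20.5 in knockouts, and Ears2 too was higher in both knockouts, whereas Eprs against Pars2, the other mitochondrial counterpart, was 38.1 and 28.5 in controls against 69.8 and 58.2 in knockouts. For valine, the ratio of Vars to Vars2, 1.26 and 0.974 in controls against 1.65 and 1.93 in knockouts, was higher in both knockouts, where Vars2 counts were lower. The histidine pair was the only one with a negative log2 difference, -0.24, and its ratios overlapped at 1.07 and 1.98 in controls against 1.10 and 1.38 in knockouts. Hars and Hars2 stand head to head on opposite strands of chromosome 18. Their exons overlap there, with 197 bases between the annotated starts, and the quantification was by strand. Hars2 counts, 261 and 149.5 in controls against 219.9 and 193 in knockouts, spread widely between the controls.

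**Figure D5:**
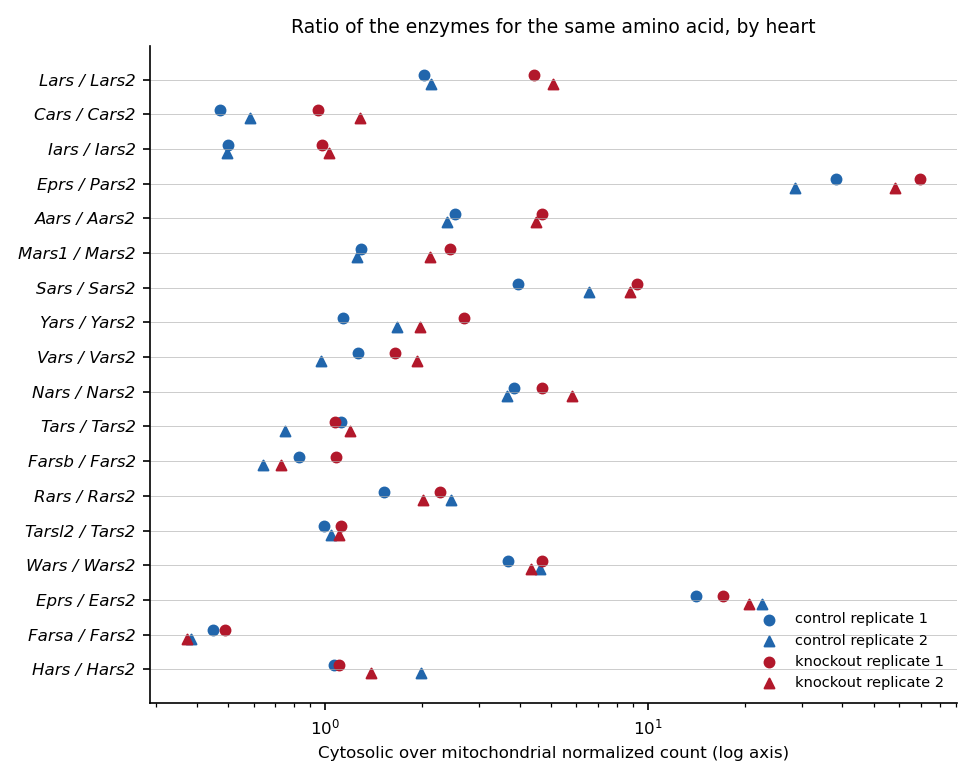
Ratio of cytosolic to mitochondrial normalized count (log axis) for the 18 pairs of enzymes for the same amino acid, 1 point per heart, ordered by the difference between groups. Red points lie to the right of both blue points from Lars / Lars2 down to Nars / Nars2 and for Tarsl2 / Tars2.

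Levels between genes were compared per kilobase of annotated exon. The length used is the union of all annotated exons of a gene, such as 18102 bases for Eprs and 3119 for Gars. It can exceed the length of the transcripts present in the heart, so the medians and ranks given here depend on the annotation. In control hearts the cytosolic genes had a median of 93.8 normalized counts per kilobase, from 19.2 (Cars) to 159 (Gars), and the mitochondrial genes a median of 39.9, from 13.8 (Wars2) to 115 (Iars2). In the knockouts the medians were 125 and 37.3. On this measure Gars ranked highest in both groups, at 159 and 324. The order below it changed. Kars and Nars ranked next in controls at 139 and 124 per kilobase, and Iars and Lars ranked next in the knockouts at 201 and 200.01.

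Other genes of the tRNA pathway were followed in 4 lists, and 0 of their genes passed in limma, edgeR or DESeq2. Partners of charging in the cytosol (7 genes) had a median log2 fold change of -0.047 and 0 genes at an unadjusted p under 0.05. The smallest p among them were those of Dtd1, which removes D-amino acids from tRNA (56.7 and 64.7 in controls against 70.0 and 70.4 in knockouts), and Sepsecs, which makes selenocysteine on its tRNA (168 and 171 in controls against 179.6 and 181 in knockouts).

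The 14 genes listed under mitochondrial tRNA modification had a median log2 fold change of 0.035, and 0 had an unadjusted p under 0.05. Pus1, a pseudouridine synthase, had 68.4 and 71.4 in controls against 92.3 and 94.9 in knockouts and Yrdc, of the threonylcarbamoyl pathway, had 63.5 and 62.0 in controls against 93.1 and 68.9 in knockouts. The 19 genes listed under cytosolic tRNA processing and modification had a median of 0.20. Of these, 17 had a positive and 2 a negative log2 fold change, beside 7332 and 7190 of the 14522 genes tested. At an unadjusted p under 0.05 in limma, 2 were higher (Trmt61a and Elac2) and 1 lower (Ctu2), beside 3.08% and 3.02% of all genes. Trmt61a, a subunit of the tRNA m1A methyltransferase, had 31.3 and 16.2 in controls against 61.0 and 69.6 in knockouts (1.49 ± 0.38; limma adjusted p = 0.646) and Ctu2, of the wobble thiolation complex, had 73.3 and 97.0 in controls against 55.2 and 47.4 in knockouts (-0.71 ± 0.25; limma adjusted p = 0.781). Among 17 genes of RNA polymerase III and its factors, the enzyme that transcribes tRNA genes, the median was 0.079, with 2 higher and 0 lower at an unadjusted p under 0.05, beside the same shares of all genes. They were Brf1, with 207 and 183 in controls against 299 and 303 in knockouts (0.62 ± 0.14; limma adjusted p = 0.547), and Polr3g, with 29.3 and 25.6 in controls against 55.2 and 40.5 in knockouts (0.77 ± 0.31; limma adjusted p = 0.806).

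Markers of other cells were read beside these results. Red blood cell markers (5 of 5 with a positive log2 fold change, 0 passing) summed to 18944 and 14398 in controls against 14926 and 41866 in knockouts, so that knockout replicate 2 stood apart. Fibroblast markers (6 of 6 negative, 0 passing) summed to 9459.7 and 8778 in controls against 7282 and 8279.8 in knockouts. Macrophage and leukocyte markers (3 of 6 negative, 0 passing) summed to 3432 and 2328 in controls against 2430.1 and 2437 in knockouts. Their smallest p were those of Lyz2, with 1423 and 1194 in controls against 1006 and 957 in knockouts, and Cd68, with 81.1 and 57.9 in controls against 39.5 and 35.2 in knockouts. Endothelial markers (4 of 5 positive, 0 passing) summed to 9724 and 8948 in controls against 9275 and 10112 in knockouts, and smooth muscle markers (3 of 3 negative, 0 passing) to 4305 and 2882 against 2561 and 3389. Their part in the synthetase differences was not tested. When libraries were scaled to equal totals of nuclear genes in place of the deposited scaling, the direction and side of the threshold were the same in limma for all 40 members.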

How the data were processed

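Strand-specific TruSeq RNA-seq of mouse hearts was analysed from the table of normalized counts per gene that the authors deposited, a signal scaled by library and not raw counts. The authors used STAR 2.7.3a for alignment to a GRCm38.p6 genome with nuclear copies of mtDNA masked and Salmon 1.1.0 for strand-specific quantification on GENCODE with a custom mitochondrial annotation, and scaled the counts with DESeq2 1.26.0. Their fold changes and p-values were not used. All deposited values were whole multiples of the value of 1 read (tolerance 0.001 reads, in proportion above 1000 reads), so that reads could be recovered. These reads are the counts that Salmon estimated per gene, as summarized by tximport, and not reads as observed. Members and lists were chosen with earlier results of these data known.

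The 14522 genes that reached a normalized count of 10 in 2 or more of 4 libraries were tested, 2 controls against 2 knockouts. The test was limma 3.58.1 in R 4.3.3, two-sided and with a trend of variance on mean, applied to log2(normalized count + 1), with Benjamini-Hochberg adjusted p-values (threshold 0.05). Given 2 hearts a group, a difference must be wide against the spread of all genes to pass. edgeR 4.0.16 and DESeq2 1.42.0 were run on the recovered reads as alternatives, with other pseudocounts, filters, scalings, a replicate block, each heart left out, and the 2 mice of contradictory labels added by either label. The fits were run on simulated counts with set fold changes, where the check made was on the size of the recovered fold change. The simulated counts took their variance from a trend over genes, so they cannot show how often calls are false in these data. Symbols matched 39 members and a RefSeq synonym 1 (Mars1, listed as Mars). Exon lengths and gene positions are from GENCODE vM21 on GRCm38, promoter sequences from RefSeq on GRCm38.p6. Values per heart are given for members that passed in any tool, those with the smallest p or the most extreme fold changes of their group, the partners, and both genes of each described pair, and outside the family for Ssbp1 and the 2 genes with the smallest p of each tRNA list described; a further list is not reported here.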

Additional observations from a re-analysis of the deposited data

How the results depend on the processing

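The main limma fit passed 11 genes as higher and 6 as lower over all genes, 2 of them cytosolic synthetases and 1 a partner. Requiring a count of 50 in 2 libraries gave 17 higher genes and 5 cytosolic, a robust fit 5 cytosolic, and no mean-variance trend 6 higher, 0 lower, 0 cytosolic and 0 partners. DESeq2 gave 43 higher, 19 lower and 8 cytosolic. Leaving out each heart gave 1 to 21 higher and 4 to 12 lower genes, 0 to 1 cytosolic, 0 to 1 partners and a cytosolic median of 0.37 to 0.52, with the lone sample of a group assumed to vary like the others.

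With the contradictory mice added by title, limma gave 0 higher and 0 lower genes, 0 cytosolic and 0 partners, with medians of 0.16 (cytosolic) and -0.0074 (mitochondrial); edgeR gave 0, 0, 0 and 0 with 0.15 and 0.00031, and DESeq2 1, 2, 0 and 0 with 0.15 and -0.0036. By genotype field the counts were 38 higher, 13 lower, 8 cytosolic and 0 partners in limma (cytosolic median 0.50), 43, 13, 8 and 0 in edgeR (0.49), and 95, 52 and 10 (higher, lower, cytosolic), with 1 partner, in DESeq2 (0.49). The edgeR and DESeq2 fits on 6 mice were chosen after seeing the data. Which label is right was not tested.

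The log2 fold changes that changed sign were all of members that did not pass. By title they were Fars2 -0.041, Hars2 -0.089, Rars2 -0.036, Wars2 -0.060, Yars2 -0.097, Aimp2 -0.051 in limma, Fars2 -0.024, Hars2 -0.13, Rars2 -0.040, Wars2 -0.10, Yars2 -0.088, Aimp2 -0.053 in edgeR and Fars2 -0.028, Hars2 -0.13, Rars2 -0.044, Wars2 -0.10, Yars2 -0.091, Aimp2 -0.056 in DESeq2. By genotype field they were Cars2 -0.037, Nars2 -0.022, Pars2 0.018 in limma, Cars2 -0.038, Nars2 -0.022 in edgeR and Cars2 -0.044, Nars2 -0.027 in DESeq2. DESeq2 on the 4 mice gave Hars2 -0.0022. Leaving out 1 heart gave ranges of Fars2 -0.20 to 0.23, Iars2 -0.078 to 0.18, Tars2 -0.049 to 0.29, Hars2 -0.34 to 0.46, Nars2 -0.064 to 0.29, Pars2 -0.43 to 0.16, Yars2 -0.11 to 0.17, Rars2 -0.11 to 0.43. The geometric mean in place of the sum gave a cytosolic to mitochondrial difference of 0.46 (main 0.60), the 6 mice by title 0.23 and by genotype field 0.57, both added after seeing the data. The other pseudocounts, no filter and equal nuclear totals moved no count of calls by over 1.5 times.

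The labels give controls and knockouts the same replicate numbers, and the deviations of same-numbered hearts correlated at 0.314, a single value that does not show that the numbers pair the mice. With the replicate block, limma gave 23 higher genes, 7 of them cytosolic synthetases, with Sars, Iars, Aars, Eprs and Mars1 beside Gars and Lars. The cause of these shifts was not tested.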

Other observations

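A mouse titled WT has Ssbp1-/- in its genotype field, and a mouse titled KO has Ssbp1+/+ there; for each, 2 technical runs form 1 library. Their values are given in that order and with no group. Normalized counts summed over the cytosolic synthetases to 15039.6 in the mouse titled WT and 9871 in the mouse titled KO, and over the mitochondrial ones to 4341 and 4059, a ratio of 3.46 and 2.43. Gars had 1093 and 428, Lars had 832 and 544, and Aars had 1239.8 and 625. Xpot had 579.7 and 294. Among mitochondrial genes, Ears2 had 156 and 119 and Vars2 had 347 and 291. Ssbp1 had 152 and 211. Of all reads, 56.2% in the mouse titled WT and 63.6% in the mouse titled KO fell on genes of the mitochondrial genome.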
